A study of Mus musculus with 45 samples.

Results

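The response of Lgr5 knockout (KO) intestinal organoids to the dose of Rspondin 1 (Rspo1) was measured in 4 RNA-seq libraries out of 45 samples in the series, 30 of which are organoid libraries. The 4 members were taken by their labels: the KO cultures named KO7 and KO2, each grown with mouse Rspo1 at 100 ng/ml and again at 5 ng/ml, so that the high dose can be set against the low dose within each culture. Both cultures came from the small intestine of E17.5 embryos of the Lgr5-DTReGFP strain, in which a cassette inserted at the Lgr5 locus disrupts the gene, and both were homozygous for it. All 4 libraries were made at passage 4, in a medium that also held EGF and noggin, and the Rspondins were produced in CHO cells. Each culture originated from 1 embryo, so there were 2 independent cultures per dose, and the p-values below measure the spread between these cultures together with that of the other organoid libraries in the fit. The same 2 KO cultures were also grown with Rspo2 and Rspo3, and 3 wild-type (WT) cultures from E17.5 embryos of the strain were grown with all 3 ligands at both doses; these are used here only where a difference in dose response was tested.

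Rspondins are secreted proteins that bind the receptors Lgr4, Lgr5 and Lgr6 and the membrane ubiquitin ligases Rnf43 and Znrf3. The ligases remove Frizzled receptors from the cell surface, and when a Rspondin draws them away more Frizzled stays in place and the response to Wnt ligands through β-catenin is stronger. In the intestinal crypt this signal maintains the stem cells and directs Paneth cell maturation, whereas cells that leave it differentiate into absorptive enterocytes and other lineages. The comparison asks which genes follow the Rspo1 dose in epithelium that lacks a functional Lgr5 receptor.

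Values are CPM, the reads of a gene scaled to the same total in every library, and differences are given on the log2(CPM + 1) scale as high minus low dose with their standard error (SE), which understates the change of genes near 0. The estimated depth was 22950000 to 26340000 reads for the 4 libraries, and mitochondrial genes held 1.29% to 1.83% of CPM. The epithelial label held: Epcam stood between 544 and 828.6 CPM and Cdh1 between 820.85 and 1073.25 CPM in the 4 libraries. Of the markers of other tissues, 5 of 15 mesenchymal, 3 of 10 immune, 2 of 7 endothelial and 4 of 8 neural and glial genes passed the filter on low values, with summed levels of 14.65 to 16.9, 16.4 to 23.15, 3.5 to 6.1 and 19.3 to 25.45 CPM, and 3, 1, 3 and 0 genes of these lists were at 0 in all 4 libraries. The endothelial sum was 3.65 and 3.5 CPM at the high dose and 5.9 and 6.1 CPM at the low dose, and its part in the results was not tested. In bulk RNA, fewer cells of a type and less RNA per cell cannot be told apart.

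The library of culture KO2 at 100 ng/ml stood apart in the RNA that coats the inactive X chromosome. Xist reached 213.2 CPM there, against 0.45 to 39.05 CPM in the other 11 KO libraries and 1029.7 to 3926.15 CPM in the WT libraries. Ddx3y, a Y-linked gene, was at 56.2 CPM in the same library and at 55 to 73.5 CPM in the other 11, so the Y-linked signal of the KO cultures was not lost. Xist in that library was 7.31% of the mean of the WT libraries with Rspo1 at 100 ng/ml. The cause was not tested, and the main counts are given with and without this library. Xist and Tsix lie on opposite strands of overlapping sequence, and reads of one cannot be told from the other where strand was not used in counting.

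Raising Rspo1 from 5 to 100 ng/ml was accompanied by higher levels of Wnt targets, stem cell markers, Paneth cell defensins, fetal-type genes, cell cycle genes and laminins, and by lower levels of detoxification enzymes, brush border genes of enterocytes and mucus genes of goblet cells. Of 19130 genes tested, 8387 passed a Benjamini-Hochberg adjusted p of 0.05 in limma (43.8%), with 6056 higher (31.7%) and 2331 lower (12.2%) at the high dose. Both high-dose libraries lay above both low-dose libraries for 8368 of the tested genes (43.7%) and below them for 3606 (18.8%), 11974 without overlap in all (62.6%), a background for the members described as not overlapping. Called genes with a change of at least 2-fold numbered 2019, 10.6% of the genes tested, with 1455 higher (7.61%) and 564 lower (2.95%). The median log2 difference of all tested genes was 0.19. When the libraries were scaled so that this median was 0.01, the share of the called genes that were higher fell from 72.2% to 51.0%.

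The 2 cultures answered in the same direction for most genes but not to the same extent. Of all tested genes, 80.5% moved the same way in both, and the changes in the 2 cultures correlated at 0.811. Among the called genes 8371 (99.8%) moved the same way, a share set largely by the calling itself, which uses the mean of the 2 cultures. The size of the change was larger in KO7 for 7212 of these and larger in KO2 for 1159, with a median absolute log2 change of 0.834 in KO7 and 0.515 in KO2. A change of at least 2-fold was reached by 3254 called genes in KO7, by 1036 in KO2 and by 920 in both in the same direction. Fits without a KO culture hold no replicate of the KO group at either dose of Rspo1. Fits without a KO library hold none at its dose. Counts from these fits, here and below, rest on the spread of other libraries. Without culture KO7 the count of called genes was 1822, and without KO2 it was 7122. Leaving out only the library with the raised Xist level, KO2 at 100 ng/ml, gave 6933.

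**Figure D1:**
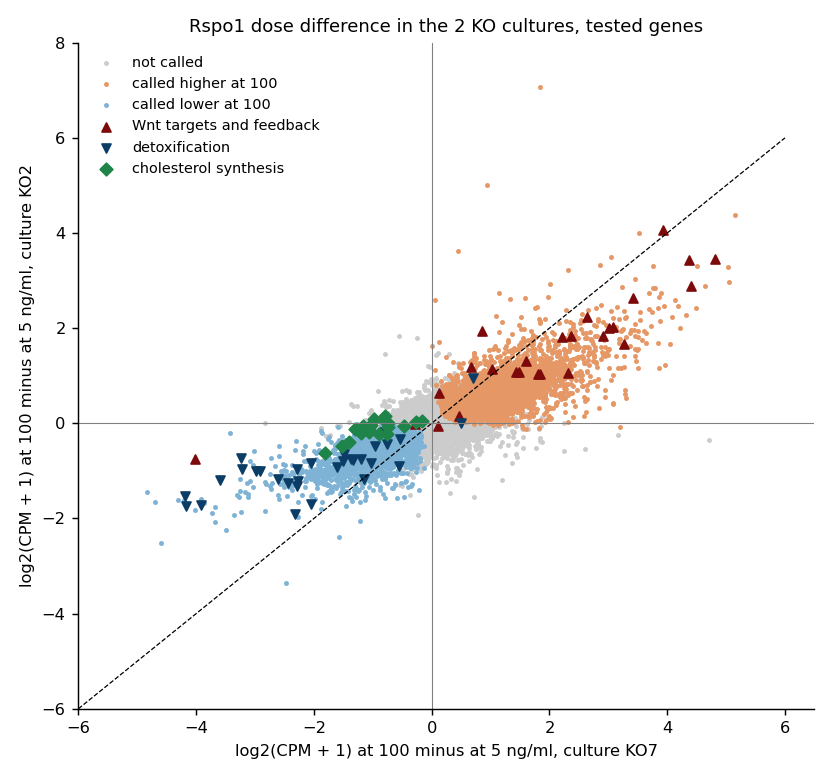
Log2 difference between 100 and 5 ng/ml Rspo1 in culture KO7 (horizontal) against KO2 (vertical), 1 point per tested gene on the log2(CPM + 1) scale, with genes called higher in orange and genes called lower in light blue. Triangles mark the Wnt and detoxification lists, diamonds the cholesterol list and the dashed line equal change. The spread along the KO7 axis (SD 0.777) is wider than along the KO2 axis (SD 0.501).

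Reads on Lgr5 itself did not disappear in the KO cultures, since a truncated transcript is still made in this strain, and they followed the dose. Lgr5, on chromosome 10 (chr10:115450311-115587780, minus strand, GRCm38), was at 57.85 CPM in KO7 and 91.65 CPM in KO2 with the high dose, and at 1.1 and 7.4 CPM with the low dose. The log2 difference was 4.14 ± 0.51 (SE; adjusted p = 7.99e-06, limma), and both high-dose libraries lay above both low-dose libraries. With the high dose the WT cultures had a mean of 134.133 CPM, so the level does not check the genotype label. What these counts measure is transcription of the locus, not receptor protein.

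Wnt target and feedback genes were higher at the high dose with few exceptions. Of 30 genes listed, 26 were tested, and 21 rose, 1 fell and 4 did not pass, with a median log2 difference of 1.57 against 0.19 for all genes. The median was 2.03 in KO7 and 1.49 in KO2, and 20 members rose without the KO2 library at the high dose. Without culture KO7, 17 rose.

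Axin2, the scaffold protein that marks β-catenin activity and restrains it, went from 11.2 to 257.6 CPM in KO7 and from 55.3 to 416.7 CPM in KO2 (log2 difference 3.65 ± 0.49, adjusted p = 1.61e-05). Sp5, a transcription factor induced by Wnt, went from 0.7 to 17.15 CPM and from 2.5 to 20.8 CPM. Tnfrsf19, a Wnt-induced receptor also known as Troy, was at 0.1 and 0 CPM with the low dose and at 15.65 and 15.7 CPM with the high dose (3.99 ± 0.36, adjusted p = 6.19e-07). In none of these 3 genes did the libraries of the doses overlap. The ligases that oppose Wnt receptors also rose: Rnf43 from 32.35 to 250.95 CPM in KO7 and from 53.35 to 194.1 CPM in KO2, and Znrf3 from 18.85 to 68.4 CPM and from 33.95 to 70.4 CPM. Myc, Ccnd1, Ccnd2 and Sox9, regulators of growth and crypt identity, rose by 1.44, 2.47, 1.69 and 2.02 on the log2 scale.

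A single member of the list fell, and none did in the fit of the 4 libraries alone. Sfrp5, a secreted Wnt antagonist, was at 72.55 CPM in KO7 and 28.1 CPM in KO2 with the low dose and at 3.55 and 16.35 CPM with the high dose (-2.38 ± 0.70, adjusted p = 0.00896). Tcf7l2, the main TCF factor of the intestine, did not pass, with 125.3 and 106.4 CPM at the high dose and 153.35 and 108.2 CPM at the low dose (-0.16 ± 0.11, adjusted p = 0.238). Its relative Tcf7 rose by 2.10. Notum, Nkd2 and Prox1 also did not pass, with log2 differences of 0.31, 0.03 and 0.38.

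The receptors of the pathway split. Of 28 genes of Rspondin and Wnt reception, 23 were tested, and 13 rose, 4 fell and 6 did not pass, with a median of 0.42. Lgr4, the Lgr5 relative that also binds Rspondins, was at 328.6 and 297.15 CPM with the high dose and at 286.95 and 288.55 CPM with the low dose, and its log2 difference of 0.12 ± 0.11 did not pass (adjusted p = 0.411). Among the Frizzled receptors, Fzd7, a stem cell receptor, went from 31.85 to 98.55 CPM in KO7 and from 40.5 to 102.4 CPM in KO2 (1.46 ± 0.17, adjusted p = 4.22e-06). Fzd5, known for Paneth cell maturation, moved the opposite way, from 784.8 to 257.75 CPM and from 712 to 364.05 CPM (-1.28 ± 0.20, adjusted p = 5.94e-05). Fzd2, Fzd9, Fzd1, Fzd6 and Fzd3 rose, by 1.52, 1.53, 0.99, 0.81 and 0.70, and Fzd4 fell by 0.93. The co-receptors diverged as well, with Lrp5 at 0.66 ± 0.12 (adjusted p = 0.000194) and Lrp6 at -0.37 ± 0.13 (adjusted p = 0.0262). Without culture KO7 7 of these genes rose and 1 fell, in the fit without the culture block 8 rose and 2 fell, and without the KO2 library at the high dose 12 rose and 2 fell.

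Few Wnt ligands were made by the organoids at a level that could be tested, 8 of 19 listed. Wnt3, the Paneth cell ligand of the stem cell niche, rose from 1.9 to 11.6 CPM in KO7 and from 2.45 to 9.8 CPM in KO2 (1.88 ± 0.18, adjusted p = 7.18e-07). Wnt7b, Wnt2 and Wnt9b also rose, by 1.61, 0.93 and 0.57, from low-dose levels of 0.2 and 0, 0 and 0.05, and 1.3 and 1.7 CPM. The other 4 did not pass.

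To set these genes beside their promoters, windows of 300 bases (250 before to 50 after the annotated start, RefSeq, GRCm38.p6) were searched for the core that TCF and LEF factors bind, CTTTGAA with its variants CTTTGAT and CTTTGTA as well as CTTTGTT, on either strand. Among 11319 tested genes with a window, 14.4% held a match, against 14.9% of the genes called higher and 13.4% of those called lower. Where the called change was at least 2-fold, 15.1% of the higher and 16.6% of the lower genes held one. In the Wnt list 4 of 17 genes with a window held one (23.5%), among them Tcf7l2, which was not called. Of the 13 members that rose and had a window, 3 held a match, and all 3 are shown. The windows of 4 members that rose are shown because they span this range from no match to a pair of matches, each read in the direction of the gene with matches in capitals.
Axin2 (chr11:108920099-108920398, plus strand): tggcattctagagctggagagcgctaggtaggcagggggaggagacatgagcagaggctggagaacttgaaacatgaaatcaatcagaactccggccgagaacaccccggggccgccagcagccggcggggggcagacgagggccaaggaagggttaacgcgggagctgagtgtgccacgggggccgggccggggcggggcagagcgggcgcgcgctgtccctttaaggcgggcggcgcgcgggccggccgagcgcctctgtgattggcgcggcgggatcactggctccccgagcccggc
Fzd7 (chr1:59481897-59482196, plus strand): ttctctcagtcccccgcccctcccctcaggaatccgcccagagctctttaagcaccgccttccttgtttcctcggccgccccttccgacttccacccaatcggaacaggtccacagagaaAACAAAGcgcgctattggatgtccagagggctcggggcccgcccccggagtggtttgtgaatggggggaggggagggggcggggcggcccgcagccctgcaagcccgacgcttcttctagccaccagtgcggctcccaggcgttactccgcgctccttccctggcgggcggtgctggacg
Sp5 (chr2:70474673-70474972, plus strand): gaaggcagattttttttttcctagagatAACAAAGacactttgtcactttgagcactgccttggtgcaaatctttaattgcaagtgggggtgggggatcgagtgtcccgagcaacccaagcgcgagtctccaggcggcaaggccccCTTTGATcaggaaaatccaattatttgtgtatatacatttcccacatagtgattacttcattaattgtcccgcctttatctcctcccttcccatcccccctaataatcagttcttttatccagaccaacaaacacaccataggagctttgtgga
Tnfrsf19 (chr14:61037938-61038237, minus strand): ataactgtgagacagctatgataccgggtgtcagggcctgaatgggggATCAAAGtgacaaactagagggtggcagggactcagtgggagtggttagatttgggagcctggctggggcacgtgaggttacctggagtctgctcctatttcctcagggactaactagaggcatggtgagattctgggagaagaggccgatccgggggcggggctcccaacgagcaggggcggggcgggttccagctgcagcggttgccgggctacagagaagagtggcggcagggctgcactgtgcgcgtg
Sp5 held AACAAAG and CTTTGAT, whose first bases lie 222 and 104 bases before the start, Fzd7 held AACAAAG at 130 bases and this window of Tnfrsf19 held ATCAAAG at 202 bases before it. Tnfrsf19 has a second annotated window (chr14:61046806-61047105, minus strand), which held no match. The window of Axin2, which rose by 3.65, held none. A match describes the sequence, not binding.

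Stem cell markers rose almost throughout. All 21 listed genes were tested, and 19 rose, none fell and 2, Tert and Aqp4, did not pass, with a median of 2.13. Without culture KO7, 16 rose, and without the KO2 library at the high dose, 18. Ascl2, the transcription factor of crypt base stem cells, was at 0.4 and 1.45 CPM with the low dose and at 27.8 and 25.35 CPM with the high dose (3.89 ± 0.41, adjusted p = 1.72e-06). Olfm4, a secreted glycoprotein of these cells, went from 56.9 to 742.2 CPM in KO7 and from 218.5 to 1160.5 CPM in KO2 (3.04 ± 0.51, adjusted p = 9.89e-05). The highest low-dose value lay under the lowest high-dose value for both genes. Msi1, an RNA-binding protein of stem cells, and Cdk6, a kinase of cell cycle entry, rose by 2.76 and 2.86. Igfbp4, a binding protein of insulin-like growth factors, rose unevenly, from 2.1 to 76.55 CPM in KO7 and from 1.5 to 17.45 CPM in KO2. Lrig1, Smoc2, Hopx and Bmi1 rose by 1.13, 0.98, 0.77 and 0.62.

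**Figure D2:**
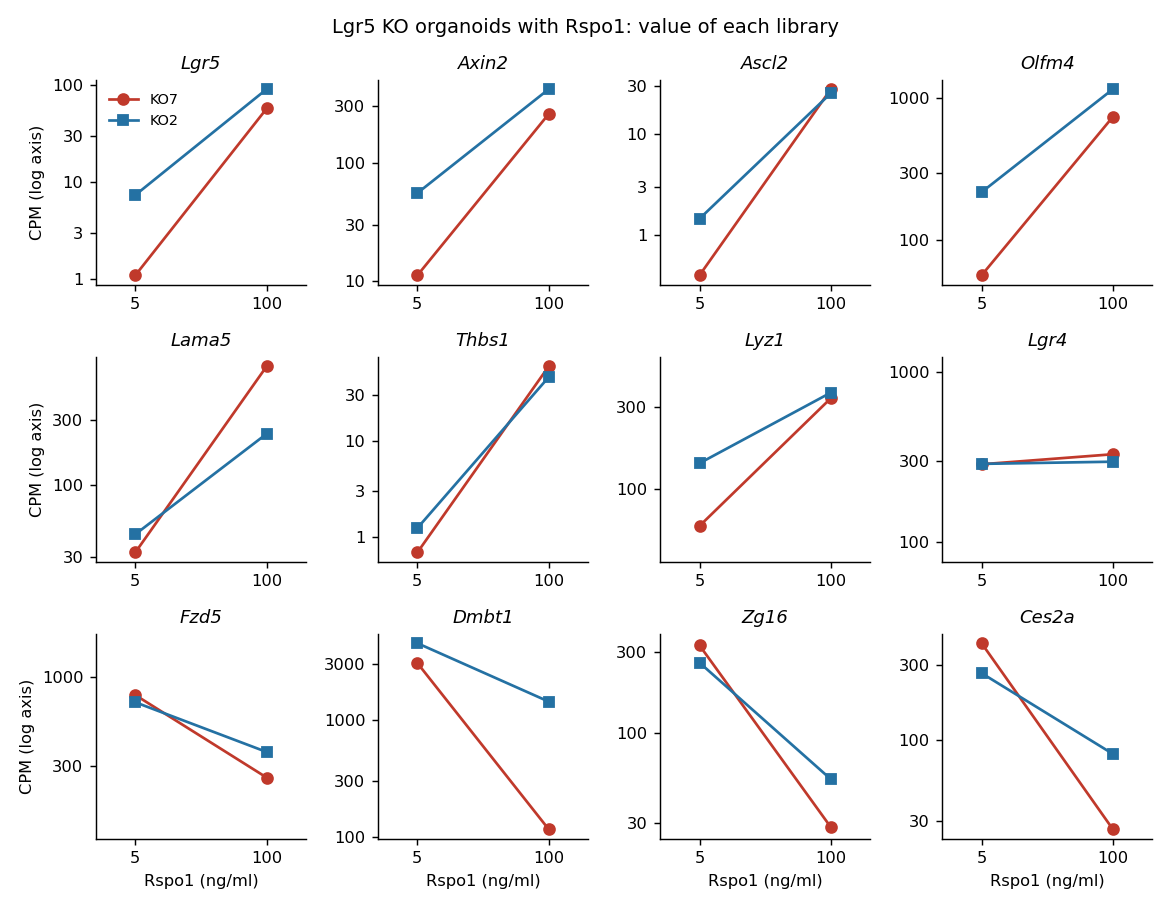
CPM (log axis) of 12 genes in each of the 4 libraries against the Rspo1 dose in ng/ml, 1 point per library, with the libraries of KO7 (circles) and KO2 (squares) joined by a line. Lgr5 is at 1.1 and 7.4 CPM with the low dose and at 57.85 and 91.65 CPM with the high dose.

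Paneth cell products were higher at the high dose, in all tested defensins and in part of the other Paneth genes. All 13 alpha-defensins that passed the filter rose (30 listed, 22 in the table), with a median of 1.64. Defa24 went from 67.95 to 212.85 CPM in KO7 and from 110.55 to 219.25 CPM in KO2 (1.31 ± 0.25, adjusted p = 0.000379), and Defa30 from 10.9 to 77.4 CPM and from 23.15 to 78.95 CPM. Without culture KO7, 4 defensins were called. These genes are near-identical copies of each other, and how reads were divided among them is uncertain. Of 17 other Paneth genes 9 rose, 2 fell and 6 did not pass, with a median of 0.88. Lyz1, the lysozyme of Paneth granules, went from 60.4 to 338.65 CPM in KO7 and from 140.7 to 365.05 CPM in KO2 (1.92 ± 0.29, adjusted p = 4.18e-05). Habp2, a serine protease, went from 2.25 to 55.9 CPM and from 5.3 to 37 CPM (3.36 ± 0.27, adjusted p = 1.46e-07). Mmp7, the protease that activates pro-defensins, Itln1, a lectin, and Ang4, an antimicrobial ribonuclease, rose by 2.66, 2.19 and 2.09. Mptx1, a pentraxin, and Reg3a, an antimicrobial lectin, fell by 0.87 and 1.58; without culture KO2, or without its high-dose library, 1 of this list fell.

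Products of mature goblet cells were lower at the high dose, while none of the listed transcription factors of the lineage fell. Of 15 tested goblet genes 2 rose, 6 fell and 7 did not pass, with a median of -0.53. Zg16, a lectin of the mucus layer, went from 327.6 to 28.15 CPM in KO7 and from 259.45 to 53.8 CPM in KO2 (-2.87 ± 0.46, adjusted p = 6.58e-05). Muc2, the gel-forming mucin, went from 1035.8 to 434.9 CPM and from 745.35 to 282.8 CPM (-1.32 ± 0.28, adjusted p = 0.000934). Foxa3 and Creb3l1, transcription factors of secretory cells, rose by 0.78 and 0.70. Without culture KO7 3 goblet genes fell and 1 rose, in the fit without the culture block 4 fell and 1 rose, and without the KO2 library at the high dose 6 fell and 1 rose. The lineage factors Atoh1 and Spdef did not pass, with log2 differences of 0.38 (adjusted p = 0.0838) and 0.42 (adjusted p = 0.0669).

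Enteroendocrine genes gave opposite pictures in the 2 cultures. Of 23 tested, 4 rose, 2 fell and 17 did not pass, both shares lower than the 31.7% and 12.2% of all tested genes. The median was 0.40 in KO7 and -0.49 in KO2, with 11 genes up in KO7 and down in KO2. Neurog3, the factor that starts this lineage, rose from 3.7 to 11.35 CPM in KO7 and from 8.6 to 15.7 CPM in KO2 (1.10 ± 0.27, adjusted p = 0.00264). Nkx2-2, Rfx6 and Pax4, which act after it, rose by 0.81, 0.66 and 0.63. In KO7 they went from 5.9 to 16.15, from 3 to 8.3 and from 0.75 to 1.25 CPM. In KO2 they went from 8.5 to 10.7, from 6.5 to 7.1 and from 0.95 to 2.65 CPM. The hormone genes Sct and Gip fell, by 2.07 and 1.29. In the fit without the culture block 1 of this list rose and 1 fell, and in the fit of the 4 libraries alone 1 rose and 2 fell. With median-of-ratios scaling 2 rose and 5 fell, and with quantile normalization 2 rose and 4 fell. Tuft cell genes were largely not called, with 3 of 12 tested rising, against 31.7% of all tested genes. These were Cd24a, which is not restricted to tuft cells, Ptgs1 and Pou2f3, the master regulator of the lineage (0.85 ± 0.29, adjusted p = 0.0217).

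Genes of absorptive enterocytes were lower at the high dose, though not in every member. Of 36 tested none rose, 22 fell and 14 did not pass, with a median of -0.85. The amino acid transporter Slc6a19 went from 355.35 to 39.6 CPM in KO7 and from 346.8 to 145.8 CPM in KO2 (-2.19 ± 0.31, adjusted p = 2.58e-05). The brush border peptidase Anpep went from 924.1 to 234.6 CPM and from 748 to 322.75 CPM, and the fatty acid binding protein Fabp2 from 461.15 to 143.7 CPM and from 473 to 246 CPM. The doses did not overlap for these 3 genes. Sis, the sucrase-isomaltase, was at 1895.45 CPM in KO7 and 1278.85 CPM in KO2 with the low dose and at 1998.8 and 701.1 CPM with the high dose, and its log2 difference of -0.39 did not pass (adjusted p = 0.419). Lct, the lactase, went from 5.7 to 58.95 CPM in KO7 and from 11.8 to 9.8 CPM in KO2 and did not pass (1.46, adjusted p = 0.142). Mgam, the maltase, did not pass either (0.21, adjusted p = 0.562). This list depended on KO7: without that culture 2 of its genes fell, against 15 without KO2 and 17 without the KO2 library at the high dose. The fit without the culture block called 13.

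Enzymes that process drugs, bile acids and oxidised compounds fell in a larger share than any other list. Of 31 tested, 28 fell, 1 rose and 2 did not pass, and the median was -1.44, with -2.04 in KO7 and -0.92 in KO2. Aldh1a1, a retinaldehyde dehydrogenase, went from 825.55 to 67.25 CPM in KO7 and from 751.45 to 328.8 CPM in KO2 (-2.39 ± 0.43, adjusted p = 0.000213). Ces2a, a carboxylesterase, went from 414.4 to 26.55 CPM and from 266.5 to 80.85 CPM (-2.81 ± 0.30, adjusted p = 2.11e-06). The glutathione transferases Gstm3 and Gstm1 fell by 2.86 and 2.09, and Nqo1, a quinone reductase, by 1.99. Members of the Ces, Cyp2c and Gstm families are similar in sequence, so single values among them are less certain than the group. Hmox1, the haem oxygenase, was the member that rose, from 2.35 to 4.45 CPM in KO7 and from 1.7 to 4.2 CPM in KO2. Without culture KO7, 14 fell, and without the KO2 library at the high dose, 29.

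**Figure D3:**
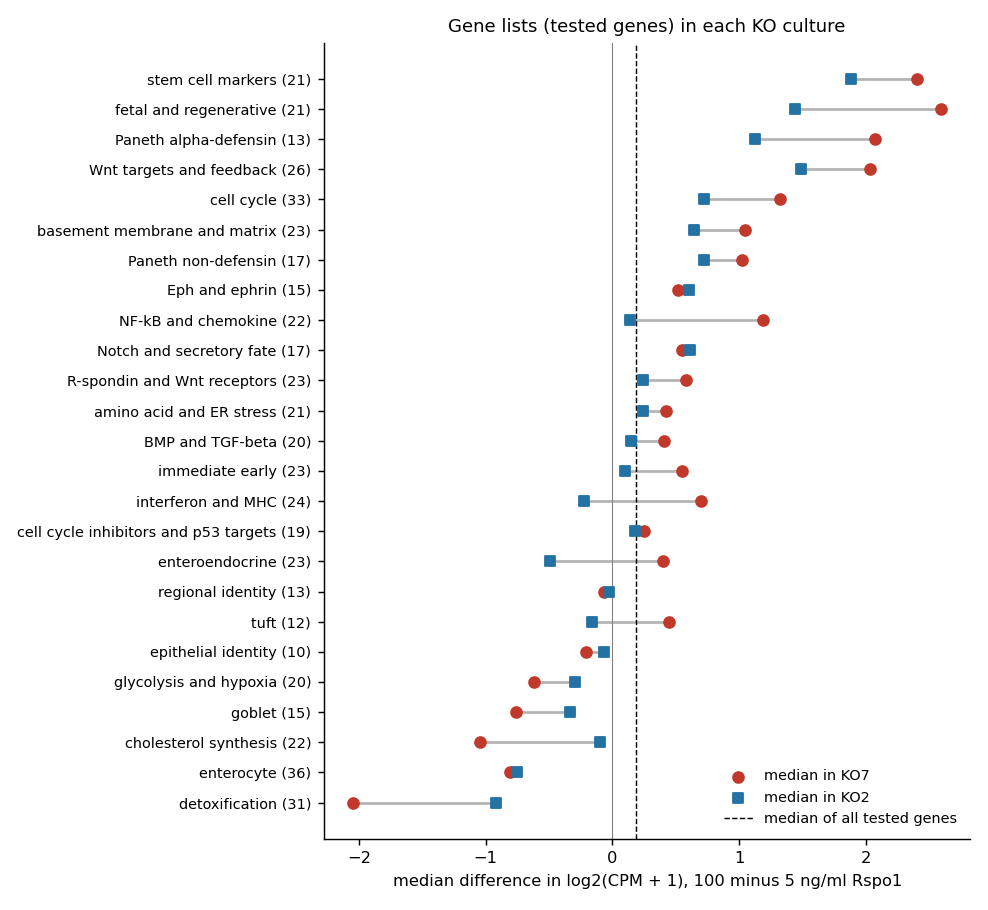
Median difference in log2(CPM + 1) between 100 and 5 ng/ml Rspo1 for each gene list with at least 10 tested genes (number tested in brackets), in KO7 (circles) and KO2 (squares), with the median of all tested genes (0.19) as a dashed line. Stem cell markers (2.40 and 1.88) lie farthest to the right in KO2, fetal genes (2.59 and 1.44) in KO7, and detoxification genes (-2.04 and -0.92) farthest to the left in both.

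Genes of the fetal and regenerating epithelium rose with the same breadth as the stem cell markers. Of 21 tested 19 rose and none fell, with a median of 2.00 (2.59 in KO7, 1.44 in KO2). Ly6a, known as Sca-1, was at 0.15 and 0.1 CPM with the low dose and at 9.85 and 7 CPM with the high dose (3.05 ± 0.28, adjusted p = 7.04e-07). Anxa1, an annexin of fetal epithelium, went from 4.45 to 58.55 CPM in KO7 and from 4.3 to 42.15 CPM in KO2, and Clu, the marker of revival stem cells, from 18.8 to 135.9 CPM and from 39.3 to 166.2 CPM. None of these overlapped between doses. Ctgf and Cyr61, targets of the YAP co-activator, rose by 2.61 and 2.65. The EGF receptor ligand Areg rose from 14.85 to 94.65 CPM in KO7 and stood at 19.45 and 21.6 CPM in KO2 (1.37 ± 0.46, adjusted p = 0.0205). Emp1 and Sprr1a did not pass. Without culture KO7, 14 rose, and without the KO2 library at the high dose, 17.

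Cell cycle genes were higher at the high dose. Of 33 cell cycle genes tested 27 rose and none fell, with a median of 0.99, and all 33 were higher at the high dose in both cultures. The helicase subunit Mcm2 went from 34.2 to 183 CPM in KO7 and from 70.3 to 169.3 CPM in KO2 (1.82 ± 0.27, adjusted p = 3.98e-05), and Mcm3 to Mcm7 rose by 1.36 to 1.68. Mki67, the proliferation antigen, went from 354.8 to 656.25 CPM and from 482 to 645.25 CPM (0.65 ± 0.20, adjusted p = 0.0107). The 6 genes that did not pass were Ccnb1, Ccnb2, Ccna2, Cdc20, Aurka and Birc5, which act in or on the way to mitosis, with log2 differences of 0.15 to 0.41. Without culture KO7, 14 rose, and without the KO2 library at the high dose, 26. Among inhibitors of the cycle and p53 targets, 8 of 19 rose and 3 fell, with a median of 0.19, the same as for all genes, and without culture KO7 1 rose and 1 fell. Of all tested genes 31.7% rose and 12.2% fell. Cdkn2b and Cdkn1c, kinase inhibitors, fell by 1.48 and 0.81, and Phlda3 and Eda2r, p53 targets, rose by 2.21 and 1.74.

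The basement membrane list held Thbs1, the largest rise of those picked by size. This gene for thrombospondin 1, a matrix glycoprotein, was at 0.7 and 1.25 CPM with the low dose and at 59.15 and 45.75 CPM with the high dose (4.76 ± 0.33, adjusted p = 4.9e-08). Of 31 listed genes 23 were tested, and 14 rose and none fell, with a median of 0.93. Lama5, the laminin α5 chain, went from 32.3 to 746.9 CPM in KO7 and from 43.85 to 239.1 CPM in KO2 (3.45 ± 0.36, adjusted p = 1.57e-06), and Lamb2, a laminin β chain, from 4.35 to 60.95 CPM and from 4.8 to 28.2 CPM (2.93 ± 0.25, adjusted p = 2.74e-07). No dose overlapped the other for these 3 genes. The collagen IV chains Col4a1 and Col4a2 rose by 2.14 and 2.22 and Loxl4, a lysyl oxidase, by 1.35 (adjusted p = 0.0208). Agrn, Hspg2, Nid1 and Nid2, which make up other parts of the membrane, did not pass. Without culture KO7, 10 rose, and without the KO2 library at the high dose, 11.

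Receptors and ligands that sort cells along the crypt moved in opposite directions. Ephb2 and Ephb3, receptors that hold cells at the crypt base, rose by 1.26 and 2.44, whereas their ligands Efnb1 and Efnb2, made by differentiated cells, fell by 0.68 and 1.38. Efnb2 went from 412.9 to 138.9 CPM in KO7 and from 360.4 to 157 CPM in KO2. Of 15 tested Eph and ephrin genes 9 rose and 3 fell, where 31.7% of all tested genes rose and 12.2% fell. Of 20 BMP and TGF-β genes 9 rose and 3 fell, against the same shares, with a median of 0.32. Bmp3 went from 233.65 to 21.8 CPM in KO7 and from 184.65 to 48.05 CPM in KO2 (-2.64 ± 0.27, adjusted p = 1.57e-06). Bmp2 fell by 1.42, and Bmp7 and Bmp8b rose by 1.60 and 1.89. With quantile normalization 4 of this list rose and 5 fell, and with median-of-ratios scaling 6 rose and 4 fell. In the Notch list 11 of 17 rose and none fell, among them the ligands Jag2 (1.76), Jag1 (0.85) and Dll4 (0.88), the receptor Notch2 (1.36) and the glycosyltransferase Lfng (1.59). The Notch target Hes1 and the ligand Dll1 did not pass, with log2 differences of -0.18 and 0.06. Without culture KO7 the higher counts of these 3 lists were 6, 3 and 6, and the fit without the culture block called 4 BMP and TGF-β genes higher. Without the KO2 library at the high dose the higher counts were 8, 8 and 9.

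Metabolic genes were affected in part and unevenly between the cultures. Of 22 genes of cholesterol synthesis and uptake 17 fell and none rose, with a median of -0.56, but the median was -1.05 in KO7 and -0.10 in KO2, and 1 fell without culture KO7 and 5 in the fit without the culture block, against 19 without the KO2 library at the high dose. Insig1, a sterol sensor, went from 643 to 181.4 CPM in KO7 and from 573.55 to 373.65 CPM in KO2. Of 20 glycolysis and hypoxia genes 2 rose and 11 fell, with Car9, a hypoxia-induced carbonic anhydrase, at -1.61 and the hexokinase Hk2 at 1.83; 1 fell without culture KO7. Of 21 amino acid and stress genes 8 rose and 2 fell, near the shares of all tested genes (31.7% and 12.2%). The serine pathway enzymes Phgdh, Psat1 and Shmt2 rose by 1.06, 1.24 and 1.11, and the stress transcription factors Atf4 and Ddit3 did not pass (0.00 and 0.16). The 2 that fell, Xbp1 and Hspa5, serve secretory protein folding. Without culture KO7 4 of this list rose and 1 fell, and with median-of-ratios scaling 8 rose and 6 fell, with a median of 0.21 against 0.41.

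Inflammatory genes were higher at the high dose chiefly in KO7. Of 22 NF-κB and chemokine genes 10 rose and 5 fell, with a median of 1.19 in KO7 and 0.14 in KO2. Icam1, an adhesion molecule, went from 1.45 to 18.65 CPM in KO7 and from 0.6 to 3.7 CPM in KO2, and Nfkbia, the feedback inhibitor, from 68.95 to 157.95 CPM and from 41.15 to 41.8 CPM without passing. The falls were Pigr, Ccl25, Cx3cl1, Ccl28 and Birc3. Of 24 interferon and MHC genes 3 rose and 1 fell, both under the shares of all tested genes, and 16 were up in KO7 and down in KO2. Without culture KO7 1 NF-κB gene and 1 interferon gene rose, without KO2 13 and 13 did, and without the KO2 library at the high dose 8 and 6 did, with 3 NF-κB genes lower. The fit without the culture block called 0 NF-κB genes higher and 3 lower.

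**Figure D4:**
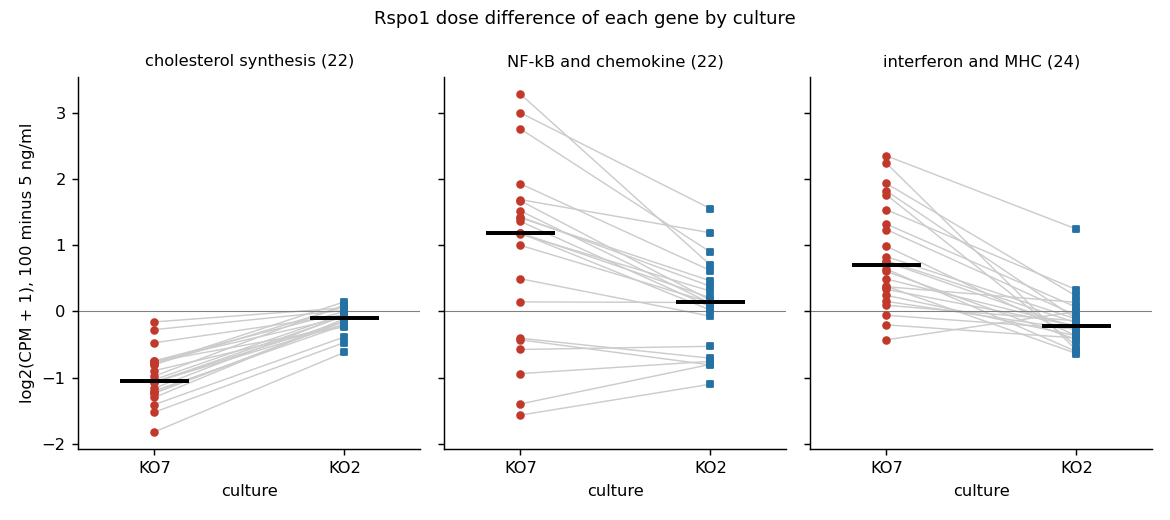
Difference in log2(CPM + 1) between 100 and 5 ng/ml Rspo1 for each tested gene of 3 lists in KO7 and KO2, with a line joining the values of a gene and a black bar at the median. The medians are -1.05 and -0.10 for cholesterol genes, 1.19 and 0.14 for NF-κB genes and 0.70 and -0.22 for interferon genes.

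Of the smaller lists, 8 of 23 immediate early genes rose and 1 fell, against 31.7% and 12.2% of all tested genes. The rises were led by the FGF and ERK targets Etv4 (2.18) and Etv5 (1.36), with Dusp5 lower (-0.91). In the fit without the culture block 3 rose, and in the fit of the 4 libraries alone 4 rose. The median was 0.55 in KO7 and 0.10 in KO2, and without culture KO7 it was 0.10 against 0.32. In the regional identity list 3 of 13 rose and 5 fell, against the same shares, with the transcription factors Gata4 and Gata6 at -0.45 and -0.57. However, none fell in the fit of the 4 libraries alone, and 3 fell without the culture block. The median of this list was -0.024 without culture KO7 against 0.045. In the epithelial identity list 1 of 10 rose, Krt18 (1.14), and 4 fell, with a median of -0.18. The falls in this list numbered 0 without culture KO7, in the fit of the 4 libraries alone and with quantile normalization, and 1 without the culture block and without the KO2 library at the high dose. The called markers of other tissues included Postn (1.05) and Tagln (-0.37), Lyz2 (1.45) and Itgam (-0.89), and Lyve1 (-0.78).

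Outside the lists, the 15 largest rises included Sorbs2, a cytoskeletal adaptor, from 8.05 to 294.1 CPM in KO7 and from 17.05 to 176.25 CPM in KO2 (4.16 ± 0.33, adjusted p = 1.39e-07). Ptpn14 and Ajuba, regulators of the Hippo pathway, rose by 3.91 and 3.33, Atg9b, an autophagy membrane protein, by 4.01 and Pcdh8, a protocadherin, by 3.76. Xist was also among them by its fitted value of 4.45 ± 1.10 (adjusted p = 0.00281), which rests on the library described above. The 15 largest falls opened with Ctrb1, a pancreatic-type chymotrypsinogen, from 111.95 to 3.65 CPM in KO7 and from 34 to 5.15 CPM in KO2 (-3.56 ± 0.33, adjusted p = 7.04e-07). Dmbt1, a secreted mucosal defence protein, went from 3047 to 115.75 CPM and from 4504.3 to 1428.05 CPM (-3.18 ± 0.48, adjusted p = 4.02e-05). Afp, the fetal serum protein, fell by 2.92, and Arg2, a mitochondrial arginase, by 2.78. The antisense gene AC154585.1, inside Arg2, fell by 2.75, and its reads cannot be told from those of Arg2 without strand. The remaining falls were Cyp2c70, Ces1f, Rims4, Aldh1a7, Cfhr2, Lipn, Zg16, Gstm3, Rdh7 and Ces2a, at -3.14 to -2.81.

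Setting the KO dose response beside that of WT organoids tested whether loss of Lgr5 changed it, and no gene passed. In WT cultures 12265 genes (64.1%) were called between the doses of Rspo1. The difference between the KO and WT responses was called for 0 of 19130 genes in limma (0%), with 1474 at an unadjusted p under 0.05. The median log2 difference of the Wnt list was 1.57 in KO and 1.47 in WT, and that of the stem cell list 2.13 and 2.43. Lgr5 itself was at 4.14 and 4.49, a difference of -0.36 ± 0.66 (adjusted p = 0.916). Without culture KO2 the difference was called for 84 genes, without culture KO7 for 21, without the KO2 library at the low dose for 61 and without the KO7 library at the high dose for 12. A difference that misses the threshold does not show that the responses were alike. Reads of Xist and of Y-linked genes separated the KO cultures from the WT cultures completely, and the effects of genotype and sex on this comparison cannot be told apart.

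With Rspo3 the log2 difference between the doses was larger for cell cycle genes in the same KO cultures. Between the Rspo3 doses 10534 genes (55.1%) were called, and the difference between the Rspo1 and Rspo3 responses was called for 756 (3.95%), 107 higher (0.559%) and 649 lower (3.39%) with Rspo1. Of the cell cycle list 26 of 33 genes had a smaller dose difference with Rspo1, with a median of 0.99 against 2.42. Mcm3 rose by 1.68 with Rspo1 and by 3.59 with Rspo3 (difference -1.92 ± 0.40, adjusted p = 0.0113). At 100 ng/ml it stood at 159.6 CPM in KO7 and 156.15 CPM in KO2 with Rspo1, and at 114.3 and 118.5 CPM with Rspo3. At 5 ng/ml it stood at 34.3 and 69.05 CPM with Rspo1 and at 6.5 and 11.6 CPM with Rspo3. Olfm4 was at 3.04 and 6.11 (difference -3.07 ± 0.72, adjusted p = 0.0191), and its mean low-dose level was 7.525 CPM with Rspo3. Its low-dose values with Rspo1 were 56.9 CPM in KO7 and 218.5 CPM in KO2. Its high-dose values were 742.2 and 1160.5 CPM with Rspo1 and 517 and 666.7 CPM with Rspo3. No member of the Wnt list passed, with medians of 1.57 and 1.93. The calls depended on the fit and on culture KO2: 16 genes, 0 of them in the cell cycle list, were called without the culture block, and 0 when the 12 KO libraries were fitted alone. The median difference of the cell cycle list was -1.41 with both cultures, -1.17 without culture KO2 and -1.63 without culture KO7. Without the KO2 library at the high dose 88 genes were called, 10 of them in the cell cycle list.

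With Rspo2 few genes differed between the doses in the KO cultures. Of all genes 224 (1.17%) were called between the Rspo2 doses. The cultures moved in opposite directions for Axin2 and Ascl2: Axin2 went from 138.4 to 422.55 CPM in KO7 and from 433.4 to 378.5 CPM in KO2 with Rspo2, and Ascl2 from 16 to 43.65 CPM and from 36.25 to 21.35 CPM. The difference between the Rspo1 and Rspo2 responses was called for 2939 genes (15.4%), 2159 higher (11.3%) and 780 lower (4.08%) with Rspo1. Higher with Rspo1 were 18 of 26 Wnt genes, 16 of 21 stem cell markers, 12 of 13 defensins and 22 of 33 cell cycle genes. Ascl2 differed by 3.57 ± 0.58 (adjusted p = 0.00312), Thbs1 by 4.09 ± 0.47 (adjusted p = 0.000427), and detoxification genes differed downward in 16 of 31. The calls depended on the fit and on KO7: the count was 425 without the culture block, 19 in the fit of the 12 KO libraries alone, 28 without culture KO7, 72 without its low-dose library and 75 without its high-dose library. The counts of the Wnt, stem cell, defensin and cell cycle lists were 5, 5, 6 and 4 without the block, 0, 0, 5 and 0 in the fit of the 12 KO libraries, and 1, 1, 4 and 0 when 1 KO7 library, at either dose, was left out, and the detoxification count was 1 without the block and 0 in the others. Without the KO2 library at the high dose 3051 genes were called. The KO libraries of the 3 ligands come from the same 2 cultures.

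**Figure D5:**
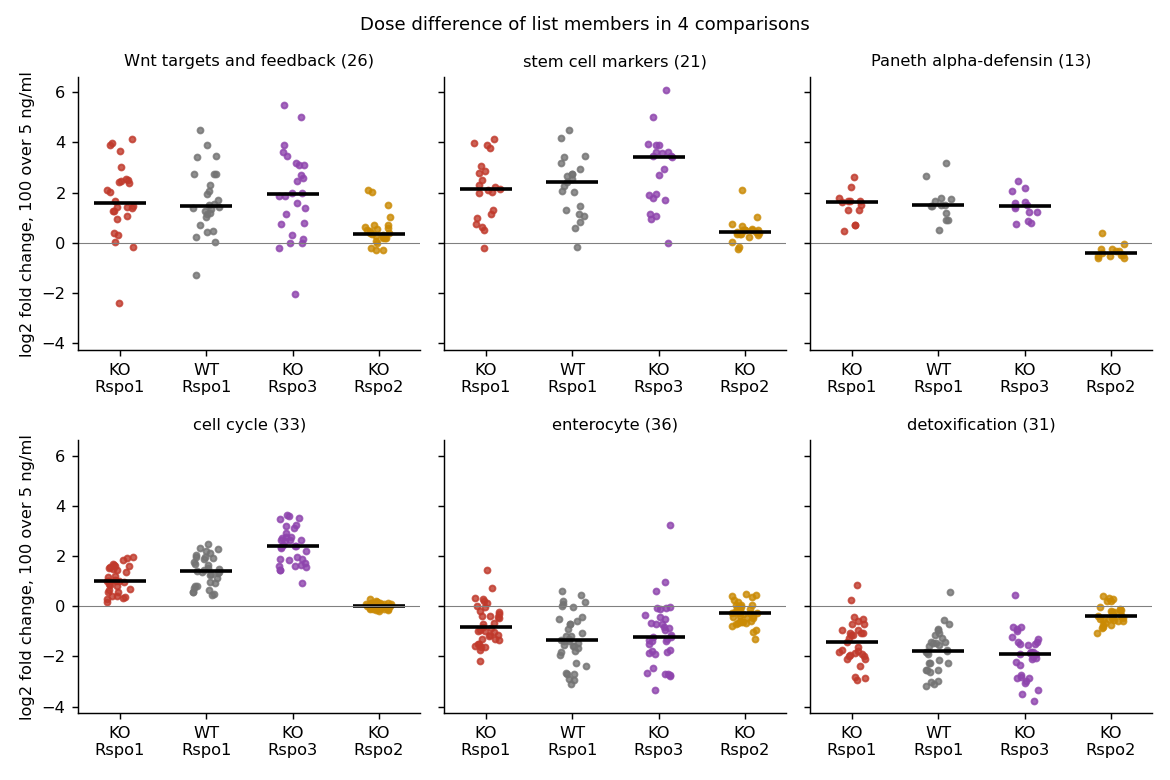
Log2 difference between 100 and 5 ng/ml for each tested gene of 6 lists (1 point per gene, black bar at the median) in KO cultures with Rspo1, WT cultures with Rspo1 and KO cultures with Rspo3 or Rspo2. The cell cycle medians are 0.99, 1.41 and 2.42 for the first 3 of these and lie near 0 with Rspo2.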

How the data were processed

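RNA was extracted from the organoids with the miRNeasy Micro kit and libraries were made with an rRNA depletion kit. Per the labels, the authors used Trimmomatic 0.36, STAR 2.5.3a and HTSeq 0.9.1 with GRCm38.p4 (mm10), and the deposited organoid table holds CPM (reads of a gene scaled to a common library total) for 52636 genes. Its values are rounded to steps of 0.05 CPM, from which whole reads were not recovered, so no count test was run, and depth was estimated from the spacing of low values. Whether counting used strand, and how reads of near-identical genes were treated, is not given in the sources used here. Columns of per-sample values that could not be mapped to a sample numbered 0.

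Genes that reached 1 CPM in 2 or more of the 30 organoid libraries were kept. Promoter windows on chromosome 18 were left out. Values were transformed to log2(CPM + 1) and fitted with limma 3.58.1 (R 4.3.3) over 12 groups, with the culture as a block and a trended prior, on 15 residual degrees of freedom. Libraries of a culture came from the same embryo, and deviations of the KO7 and KO2 libraries from their group means correlated at 0.349 between the doses. Genes with a Benjamini-Hochberg adjusted p under 0.05 over all genes tested were called. The script was tested on simulated data. Tables and figures were made with Python 3.11.15, pandas 2.3.3, numpy 2.4.6 and matplotlib 3.10.9.

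The members and the 30 gene lists were chosen with earlier results of these data known. Genes were named by rule: Lgr5, the 15 largest rises and falls with a mean of at least 2 CPM and the same direction in both cultures (clone-type names left out), up to 6 called members in each direction and the 3 highest-level members of each list, the 5 genes with the largest opposite changes in the cultures, the 5 largest called differences in each direction for each interaction, and genes that the study names for its organoids. Further list members are named in the text after their values were seen. Alternatives changed the block, the libraries in the fit, the pseudocount, the filter, the scaling, the moderation and the threshold. The table of sorted cells was not used here.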

Additional observations from a re-analysis of the deposited data

Results flagged for a closer look

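Results are listed here because the difference between the Rspo1 dose response and that of another ligand in the same KO cultures passed the test of the difference itself (limma, Benjamini-Hochberg). Against Rspo3, 756 genes were called. The log2 difference was larger with Rspo1 for Slc28a1 (2.09), Rdh9 (2.08), Dpep1 (1.97), Slc37a2 (1.95) and Slc16a9 (1.94); the first and the last 3 fell in both responses and fell less with Rspo1, and Rdh9 was at 0.05 with Rspo1 and -2.03 with Rspo3. It was smaller with Rspo1 for Olfm4 (-3.07), Fam129a (-2.27), Moxd1 (-2.03), Uhrf1 (-1.97) and Mcm3 (-1.92). Uhrf1, which maintains DNA methylation, and Mcm3, a replication helicase subunit, rose with both ligands.

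Against Rspo2, 2939 genes were called. The difference was positive for Xist (6.35), Thbs1 (4.09), Tsix (4.06), Ascl2 (3.57) and Igfbp4 (3.25), and negative for Ctrb1 (-2.81), Cfhr2 (-2.80), Cyp2c38 (-2.48), Lipn (-2.44) and Dmbt1 (-2.43). The values of Xist and Tsix rest on the KO2 library at 100 ng/ml of Rspo1, with 213.2 and 32.8 CPM against 9.4 and 1.4 CPM in KO7 at that dose. When the 12 KO libraries were fitted alone, 0 genes differed from Rspo3 and 19 from Rspo2. The cause of the Xist level was not tested.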

How the results depend on the processing

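None of the 262 named genes changed direction where called, and calls were lost for 1 gene with a pseudocount of 0.1, 11 with median-of-ratios scaling, 26 with quantile normalization, 58 with no replicate block and 103 without culture 7. With no replicate block, so that the pairing by culture is not used, the KO Rspo1 dose gave 5694 called genes against 8387, all of them also called with the block, the KO Rspo2 dose 22, and the differences from Rspo3 and Rspo2 16 and 425. The block changed no other count over all genes by over 1.5 times. With the 12 KO libraries alone the counts were 2 for the Rspo2 dose and 0 and 19 for the differences from Rspo3 and Rspo2, and with the 4 libraries alone 3458 for the Rspo1 dose. A pseudocount of 0.1 gave 110 for the Rspo2 dose, and testing genes above 0 in 2 libraries gave 465 and 1829 for the differences from Rspo3 and Rspo2.

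With a mean of at least 10 CPM, where fewer genes were tested, the counts were 5471 (KO Rspo1), 7361 (WT Rspo1), 6945 (KO Rspo3) and 15 (KO Rspo2). Quantile normalization gave 7 genes for the difference from WT and 363 for that from Rspo3, and median-of-ratios scaling gave 8 for the difference from WT. A threshold of 0.001 gave 2982, 7315, 5869 and 3 for the 4 doses, and 0 and 7 for the differences from Rspo3 and Rspo2. A limit of 2-fold gave 2019, 2819, 3567 and 91, and 413 and 1232. Leaving out a library or a culture of the KO Rspo1 groups gave 1822 to 8153 for the KO Rspo1 dose, 14 to 383 for Rspo2, 0 to 84 for the difference from WT, 12 to 799 for that from Rspo3 and 28 to 4183 for that from Rspo2. The lowest value for KO Rspo1 came without culture 7 and the lowest for Rspo3 without culture 2.

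The median of small lists changed sign under some settings. For regional identity it was -0.12 in the fits of 12 and of 4 libraries, -0.34 with a mean of at least 10 CPM, -0.18 with median-of-ratios scaling and -0.093 to 0.11 when a library or culture was left out. For tuft genes it was 0.53 with a mean of at least 10 CPM and -0.19 to 0.45 when a library or culture was left out, for neural and glial genes -0.27 with that filter and -0.16 with quantile normalization, and for epithelial identity 0.017 with quantile normalization. For immune genes it was -0.21 with quantile normalization, -0.14 with median-of-ratios scaling and -0.070 to 0.20 when a library or culture was left out, and for cell cycle inhibitors -0.031 with median-of-ratios scaling. The cause was not tested. A single read was worth 0.038 to 0.0436 CPM in the 4 libraries, which limits genes near 0.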

Other observations

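Of all tested genes, 80.5% moved the same way in the 2 KO cultures. Among genes with a mean of at least 2 CPM, the 5 with the largest changes in opposite directions are given as values. Oasl1, an interferon-induced gene, went from 5.55 to 14.05 CPM between 5 and 100 ng/ml Rspo1 in KO7 and from 8.2 to 3.05 CPM in KO2. Slc2a2, the basolateral glucose transporter of enterocytes, went from 25.55 to 67.2 CPM in KO7 and from 22.15 to 12.05 CPM in KO2. Reg3b, an antimicrobial lectin, went from 17.75 to 29.9 CPM and from 228.25 to 77.65 CPM. Spp2 went from 7.35 to 3.8 CPM and from 5.05 to 15.65 CPM, and Sardh, a mitochondrial dehydrogenase, from 0.75 to 3.75 CPM and from 3.85 to 1.95 CPM. None of the 5 was called for the dose of Rspo1 in limma, with adjusted p-values of 0.517 to 0.991.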
